A study of Mus musculus with 8 samples.

Results

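The 34 genes described here encode enzymes and regulators of cholesterol and fatty acid synthesis, and they are 34 of the 52636 genes in a count table from mesenchymal stem/progenitor cells (MSPCs) of mouse bone marrow. They were taken by name, as the rows whose Ensembl identifier belongs to the listed symbols. Matching by name uses no measured value, but the genes, their roles and the other lists were chosen with earlier results of these data known. The study asked whether the niche cells that support hematopoietic stem cells differ when CXCR4 is deleted in multipotent progenitors and their progeny. RNA of MSPCs was sequenced from 4 control mice (CTR, Flk2-cre+ Cxcr4fl/+) and 4 conditional knockout mice (cKO, Flk2-cre+ Cxcr4fl/fl), on a C57BL/6 background. The study states that littermates served as controls, but the labels do not say which of these mice shared a litter. Each library came from 1 mouse. The labels give an age of 6 weeks, whereas the methods give an older range for all mice. Both groups carry the Flk2-cre transgene, which is inserted in the Y chromosome, and at least 1 floxed Cxcr4 allele. Both also carry GFP at the Kitl locus, since the cells were sorted as positive for PDGFRα and SCF-GFP and negative for the blood cell markers CD45 and Ter119 and for the endothelial markers CD31 and CD144. Flk2-cre acts in hematopoietic progenitors and is not directed at the MSPCs that were sequenced.

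Cholesterol is built from acetyl-CoA through the mevalonate pathway, which ends in farnesyl pyrophosphate, and then through squalene and a series of sterol intermediates. The transcription factors SREBP1 (Srebf1) and SREBP2 (Srebf2) are carried by SCAP from the endoplasmic reticulum to the Golgi for cleavage when sterols are low, and the INSIG proteins hold SCAP back when sterols are high. SREBP2 mainly drives cholesterol genes and SREBP1 mainly drives fatty acid genes. Insig1 is itself a target of the SREBPs. MSPCs of the bone marrow express Lepr and Cxcl12 and can give rise to marrow adipocytes, the cells in which fatty acid synthesis is best known in this tissue.

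Total counts per library lay between 31047344 and 38216877. The sample titles carry a number whose meaning the labels do not give, and these numbers fall into 26 to 32 (CTR2, CTR4, cKO2 and cKO4) and 67 to 86 (CTR1, CTR3, cKO1 and cKO3). The 8 MSPC markers summed to 53280 to 63971 CPM (counts scaled to the TMM-adjusted library size) in CTR and to 53380 to 64662 in cKO. Of 14 hematopoietic markers, the sum was 70.6 to 214 CPM in CTR and 160 to 265 in cKO, with Cd3e at 0 in every library, and the 8 endothelial markers summed to at most 14.2 CPM in any library. Adipoq and Lpl, which MSPCs themselves express, made up most of the adipocyte list. The other 9 adipocyte markers summed to 22.4 to 49.2 CPM in CTR and 30.3 to 86.9 in cKO. Among them, Fabp4 was at 10.5 to 30.3 CPM in CTR and 19.6 to 48.1 in cKO. Car3 was at 10.1 to 25.6 CPM in CTR and 8.04 to 36.4 in cKO. Cfd was also counted in every library, whereas Cidea and Retn were at 0. The part of these other cell types in the values below was not tested. Between 4 and 19 reads of Cxcr4 were counted in the CTR libraries, and between 0 and 12 in those of cKO, which does not check the genotype labels because the deletion is in other cells. In bulk RNA, a lower value can mean fewer cells of a kind or less RNA per cell, and these cannot be told apart.

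No library had a count of 0 for any of the 34 genes, and all 34 were among the 14598 genes tested. Levels were compared between genes as CPM per kilobase of exon. Insig2, which retains SCAP in the endoplasmic reticulum, had the highest level at 68.2 ± 8.46 CPM per kilobase (SD, n = 8 libraries) and ranked 589 of the 14598 genes. It was followed by Fads1, a fatty acid desaturase, at 32.2 ± 3.90, and by Ebp, a sterol isomerase, at 27.5 ± 4.57. The intervals of 1 SD around Fads1 and Ebp overlap, although Fads1 lay above Ebp in each single library. The interval of Insig2 lies above both. Scd2, Acly and Scd1 came next at 20.4, 19.3 and 18.5 CPM per kilobase and did not differ beyond their spread. At the low end were Lss (0.669), Tm7sf2 (0.443), Stard4 (0.407) and Idi1 (0.364 CPM per kilobase, rank 13575). The median level was 5.98 CPM per kilobase for the 34 genes and 4.58 for all genes tested, and 21 of the 34 lay above the latter. By role, the median levels were 12.5 CPM per kilobase for the 10 fatty acid genes, 9.38 for the 6 regulators, 5.06 for the 7 mevalonate genes and 4.00 for the 11 sterol genes.

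**Figure D1:**
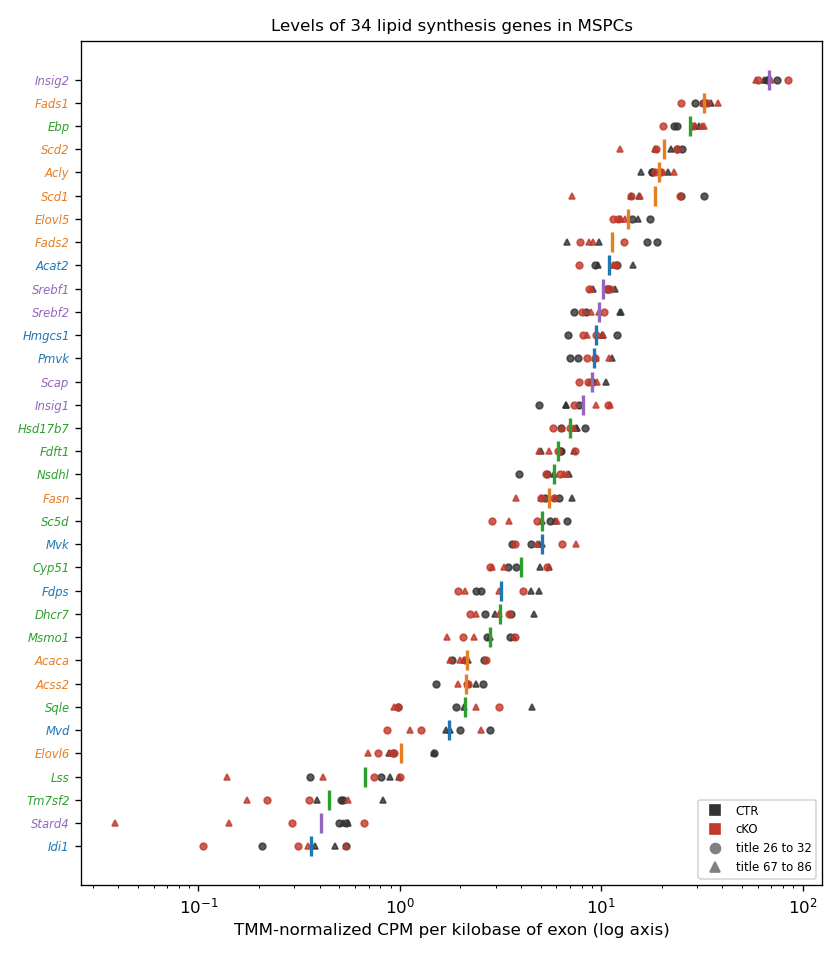
Level of each of the 34 genes in the 8 libraries, as TMM-normalized CPM per kilobase of exon on a log axis. Black symbols are CTR and red symbols cKO, circles are title numbers 26 to 32 and triangles 67 to 86, and the vertical tick is the mean, colored by role as are the gene names (blue mevalonate, green sterol, purple regulators, orange fatty acid). Insig2 stands above the other genes, and the libraries spread most for Stard4, Lss, Sqle and Idi1.

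The spread over the 8 libraries differed widely among the genes. The SD of log2 CPM was 1.30 for Stard4, 0.98 for Lss, 0.85 for Sqle and 0.75 for Idi1, and 0.13 for Scap, with a median of 0.31 for the 34 genes against 0.30 for all genes tested. Stard4 and Idi1 are low genes, with as few as 7 and 13 counts in a library, so that counting error is part of their spread. Sqle, the squalene epoxidase, had 168 to 811 counts. Its CPM values were 11.6, 10.6, 25.2 and 5.43 in CTR replicates 1 to 4 and 13.3, 5.45, 5.17 and 17.3 in cKO replicates 1 to 4, so that high and low libraries occurred in both genotypes.

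Upstream stretches are shown for 4 genes of different roles, namely an early cholesterol enzyme, the fatty acid synthase, an SREBP and the SREBP target Insig1. RefSeq promoter windows on GRCm38.p6 were found for 27 of the 34 genes, and not for Fdps, Fdft1, Sqle, Stard4, Scd1, Scd2 and Fads1. Each line gives the 150 bases before the outermost start in RefSeq or GENCODE M21, read 5′ to 3′ in the direction of the gene. They lie at chr13:119690201-119690350 for Hmgcs1 (plus strand), chr11:120824548-120824697 for Fasn (minus strand), chr15:82147031-82147180 for Srebf2 (plus strand), chr5:28071213-28071362 for Insig1 (plus strand). Capitals mark CCAAT, the core bound by NF-Y, TCACNCCAC, a form of the sterol regulatory element, and CACGTG, an E-box, each on either strand. The stretches were chosen after the matches were known, and Hmgcs1 is the only gene of the 27 with a TCACNCCAC match.
Hmgcs1: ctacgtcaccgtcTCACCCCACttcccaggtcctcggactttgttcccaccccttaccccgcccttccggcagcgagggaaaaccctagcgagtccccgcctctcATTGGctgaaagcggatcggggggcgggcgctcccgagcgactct
Fasn: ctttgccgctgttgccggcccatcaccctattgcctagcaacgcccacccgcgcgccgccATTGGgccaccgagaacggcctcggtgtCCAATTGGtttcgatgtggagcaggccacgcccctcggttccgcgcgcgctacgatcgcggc
Srebf2: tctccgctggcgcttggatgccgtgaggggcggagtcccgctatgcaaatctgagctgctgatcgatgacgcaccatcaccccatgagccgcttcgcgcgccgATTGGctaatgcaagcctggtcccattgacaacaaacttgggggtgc
Insig1: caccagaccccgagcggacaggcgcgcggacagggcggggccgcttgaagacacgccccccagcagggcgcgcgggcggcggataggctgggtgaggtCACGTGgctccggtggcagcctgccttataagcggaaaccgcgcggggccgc

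In these lines, Hmgcs1 carries TCACNCCAC once and CCAAT once, in the reverse direction. The 3 CCAAT matches of Fasn include a pair on opposite strands that overlap by 2 bases, and Insig1 shows CACGTG alone. Over the 250 bases before the RefSeq start, CCAAT was found in 21 of the 27 genes, and in 37.5% of the 27025 genes with a window. TCACNCCAC was found in 1 of the 27 (1.22% of all genes), the looser TCACNNCAC, which includes it, in Hmgcs1, Msmo1, Hsd17b7 and Dhcr7 (3.63%), CACGTG in 6 (6.86%) and TCACNTGA in Insig2 alone (3.98%). A match is a run of letters and says nothing about binding in MSPCs.

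Between cKO and CTR, 0 of the 34 genes passed an adjusted p-value of 0.05 in edgeR's quasi-likelihood test, where 0 of the 14598 genes tested (0%) did so. At an unadjusted p-value under 0.05 there were 2 of the 34, Insig1 and Elovl5, against 646 genes or 4.43% of all (2.35% higher and 2.08% lower). DESeq2 also called 0 of the 34 with its Wald and likelihood ratio tests, which called 23 (0.158%) and 22 (0.151%) of the genes. In no gene of the 34 did the 4 cKO libraries lie apart from the 4 CTR libraries, which was the case for 2.62% of all genes. The log2 fold change was negative, that is, the fitted value was lower in cKO, for 27 of the 34 genes, against 50.2% of all genes, and positive for 7, against 49.8%. The median log2 fold change was -0.22 for the 34 genes and -0.001 for all genes. These genes share the same 8 libraries and are not independent of each other, and the list as a whole was not tested.

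The negative values were spread over the roles. They were found for 5 of the 7 mevalonate genes (median log2 fold change -0.11), 9 of the 11 sterol genes (-0.30), 4 of the 6 regulators (-0.11) and 9 of the 10 fatty acid genes (-0.28). These medians moved with single libraries. The mevalonate median was -0.18 without cKO1 and -0.00013 without cKO2, the sterol median -0.42 without cKO4 and -0.15 without CTR3, and the regulator median -0.13 without CTR2 and -0.035 without CTR1, whereas the fatty acid median stayed between -0.30 and -0.21. The same difference was taken within each range of title numbers. Within 26 to 32, 19 of the 34 genes were lower in cKO (median difference of mean log2 CPM -0.07) against 50.5% of all genes, and within 67 to 86, 26 were lower (-0.15) against 50.3%. In both ranges 16 of the 34 were lower (47.1%), as were 27.1% of all genes. The sterol genes had a median difference of 0.04 within 26 to 32 and of -0.45 within 67 to 86. No gene of the 34 had an adjusted p-value under 0.05 for the interaction of genotype and title range in edgeR, and 0 genes of all tested did, with 502 (3.44%) at an unadjusted p-value under 0.05. Of the 34, Lss, Srebf2, Stard4 and Fads2 were among these 502, and they were named after their values were seen. When single libraries were omitted, the number of negative values lay between 25 and 27.

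**Figure D2:**
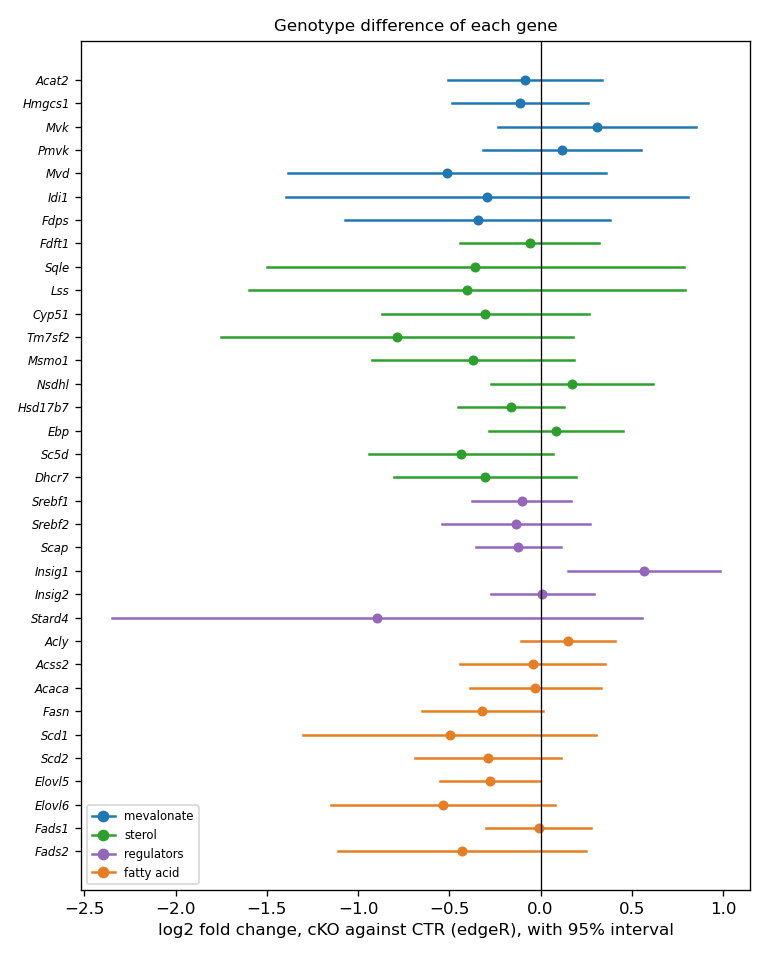
Log2 fold change of each gene, cKO against CTR, from edgeR (points) with the 95% confidence interval (lines), colored by role. Most points lie below 0, and the interval excludes 0 for 2 of the 34 genes, Insig1 above and Elovl5 below it, before any adjustment.

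The precision differs from gene to gene. The 95% confidence interval lay within a log2 fold change of 1 in either direction for 24 of the 34 genes, with a median half-width of 0.43. It was narrowest for Scap and widest for Stard4 (half-widths 0.23 and 1.45). For the 10 genes with wider intervals, among them Sqle, Lss, Idi1 and Scd1, the interval reached beyond that size.

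In what follows, values are listed in the order of replicates 1 to 4 of each genotype. Among the mevalonate genes, Acat2, which joins acetyl-CoA units, was measured at 36.5, 23.6, 24.5 and 30.4 CPM in CTR and 29.1, 19.8, 29.4 and 30.1 in cKO. Hmgcs1, the HMG-CoA synthase, was at 46.7, 31.6, 46.2 and 55.2 CPM in CTR and 46.7, 37.1, 39.3 and 43.2 in cKO. The genotypes overlapped for both, with log2 fold changes of -0.08 (SE 0.19) and -0.11 (SE 0.17). Mvd, the mevalonate diphosphate decarboxylase, was at 3.30, 3.71, 3.17 and 5.19 CPM in CTR and 4.72, 2.37, 2.09 and 1.61 in cKO, and Fdps, the farnesyl diphosphate synthase, at 18.9, 10.6, 20.7 and 10.03 in CTR and 13.1, 8.18, 8.85 and 17.2 in cKO. In Mvd, 3 of the 4 cKO libraries lay below all CTR libraries and cKO1 lay among them. The log2 fold changes were -0.51 (SE 0.39) for Mvd and -0.35 (SE 0.33) for Fdps, each with an adjusted p = 0.999 in edgeR. Exons of Fdps share 26.7% of their bases with Gm43738 on the same strand and those of Hmgcs1 12.1% with Gm48342 on the opposite strand. Reads there may have been assigned to either gene or left out, since the use of strand in the counting is not given in the sources used here. Mvk and Pmvk, the mevalonate kinases, were the mevalonate genes with positive log2 fold changes (0.31 and 0.12).

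Ebp had the highest level of the sterol genes, with 70.9, 54.7, 67.6 and 53.3 CPM in CTR and 73.4, 46.6, 75.2 and 65.8 in cKO (log2 fold change 0.08, SE 0.17). Hsd17b7, a sterol reductase, was at 38.1, 42.4, 38.9 and 32.2 CPM in CTR and 32.7, 29.5, 37.5 and 35.9 in cKO (-0.16, SE 0.13). Both sets of values overlapped between genotypes. The largest fold changes of the group were those of Tm7sf2, a sterol reductase, and Sc5d, a sterol desaturase. Tm7sf2 was at 3.62, 2.30, 1.71 and 2.25 CPM in CTR and 0.766, 1.57, 2.43 and 0.962 in cKO, with a log2 fold change of -0.79 (SE 0.43, unadjusted p = 0.0994 and adjusted p = 0.999 in edgeR). In Tm7sf2 the cKO3 library exceeded 3 of the 4 CTR libraries, and 12.1% of its exon bases are shared with Vps51 on the same strand. Sc5d was at 28.8, 33.01, 24.6 and 27.0 CPM in CTR and 29.4, 23.5, 16.9 and 14.0 in cKO, with a log2 fold change of -0.44 (SE 0.23, unadjusted p = 0.0839 and adjusted p = 0.999 in edgeR). Here cKO1 lay within the CTR values and the other 3 cKO libraries below them.

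Of the regulators, Insig1 (chr5:28071363-28078662 on GRCm38) had the smallest unadjusted p-value of the 34 genes. It was at 20.7, 24.1, 20.7 and 15.1 CPM in CTR and 34.1, 22.6, 29.2 and 33.4 in cKO, or 20.2 ± 3.72 and 29.8 ± 5.26 (SD, n = 4 each). CTR2 was above cKO2, and the other cKO libraries were above all CTR libraries. The log2 fold change was 0.56 (SE 0.19, 95% confidence interval 0.15 to 0.98, unadjusted p = 0.0128 and adjusted p = 0.999 in edgeR), and a 2-sided exact permutation test gave p = 0.0571, where 4 against 4 cannot go below 0.0286. The Insig1 difference was 0.52 within title numbers 26 to 32 and 0.61 within 67 to 86, and between 0.45 and 0.68 with each library left out. It did not pass the test across all genes, though its sign was the same throughout these settings. Insig1 was the one regulator besides Insig2 with a positive value. Of the 18 mevalonate and sterol enzymes, 14 had negative values, and 0 of the 18 passed the adjusted threshold in edgeR. Within 26 to 32, the median difference was -0.06 for the mevalonate genes and 0.04 for the sterol genes. A link between Insig1 and the enzyme values was not tested.

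Insig2 was at 231, 230, 223 and 259 CPM in CTR and 242, 295, 204 and 209 in cKO, with a log2 fold change of 0.01 (SE 0.13) whose sign depended on the setting. Srebf1 was at 66.1, 60.3, 51.6 and 60.8 CPM in CTR and 50.3, 62.3, 60.5 and 49.1 in cKO (-0.10, SE 0.12). Srebf2 was at 90.003, 60.2, 89.1 and 52.7 CPM in CTR and 70.2, 57.8, 63.9 and 74.0 in cKO (-0.13, SE 0.18). For Srebf2 the CTR libraries formed the extremes, and the difference was 0.22 within title numbers 26 to 32 and -0.42 within 67 to 86. Stard4, a sterol carrier, was at 3.11, 2.79, 2.92 and 3.02 CPM in CTR and 0.796, 1.62, 0.215 and 3.69 in cKO. Its CTR libraries were close together, whereas the cKO libraries spread over 17.2-fold, with 3 below CTR and 1 above. The log2 fold change of Stard4 was -0.90 (SE 0.65, adjusted p = 0.999 in edgeR), at 7 to 142 counts per library. It was -1.74 without cKO4 and -0.53 without cKO3, and -1.50 with limma-voom, and the difference was -0.24 within title numbers 26 to 32 and -2.66 within 67 to 86.

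Among the fatty acid genes, Scd1 and Scd2, the stearoyl-CoA desaturases that make oleate, are paralogs that lie close to each other on chromosome 19 (chr19:44394455-44407879 and chr19:44293674-44306864). Scd1 was at 75.4, 159, 68.9 and 121 CPM in CTR and 35.1, 120, 76.03 and 69.1 in cKO, with a log2 fold change of -0.50 (SE 0.36). Scd2 was at 102, 130, 121 and 138 CPM in CTR and 68.0, 130, 102 and 103 in cKO (-0.29, SE 0.18). The genotypes overlapped in both, and cKO1 was lowest in both. How reads were divided between these similar genes was not tested. Elovl6, a fatty acid elongase, was at 9.54, 9.50, 5.71 and 5.94 CPM in CTR and 5.76, 5.99, 4.46 and 4.99 in cKO (-0.53, SE 0.28, unadjusted p = 0.0819 and adjusted p = 0.999 in edgeR). In Elovl6, CTR1 and CTR2 stood above the other 6 libraries. Fads1 was at 168, 140, 161 and 153 CPM in CTR and 155, 120, 182 and 162 in cKO, with a log2 fold change of -0.01 (SE 0.13).

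Elovl5 and Fasn were chosen for description after their values were seen. Elovl5, an elongase of polyunsaturated fatty acids, was at 43.8, 50.1, 53.7 and 61.6 CPM in CTR and 46.3, 42.5, 44.0 and 40.3 in cKO. The log2 fold change was -0.27 (SE 0.12, unadjusted p = 0.0495 and adjusted p = 0.999 in edgeR), and an exact permutation test gave p = 0.0857. Fasn, the fatty acid synthase, was at 78.8, 57.4, 64.9 and 67.4 CPM in CTR and 55.0, 55.0, 41.5 and 63.8 in cKO, with a log2 fold change of -0.32 (SE 0.15, unadjusted p = 0.0565 and adjusted p = 0.999 in edgeR). Only cKO4 reached into the range of the CTR libraries for Fasn. Its difference was -0.07 within title numbers 26 to 32 and -0.58 within 67 to 86. Acly, which supplies cytosolic acetyl-CoA, was the fatty acid gene with a positive log2 fold change (0.15, SE 0.12).

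**Figure D3:**
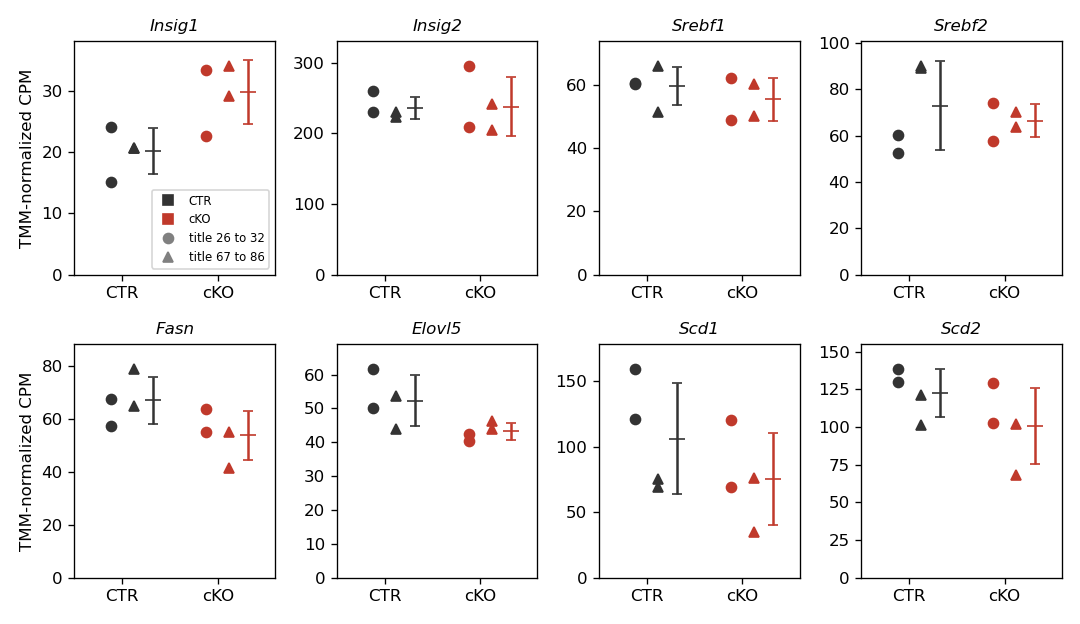
TMM-normalized CPM of 8 of the genes in each library, by genotype. Black is CTR and red cKO, circles are title numbers 26 to 32 and triangles 67 to 86, and the bar beside the points is the mean with the SD of 4 libraries. The genotypes overlap in every panel, and for Scd1 the circles lie mostly above the triangles.

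The other genes of the pathway were taken from 4 lists with 67 genes, of which 61 were tested and 6 had a count of 0 in at least 1 library. Between genotypes 0 of the 61 passed the adjusted threshold, and 6 had an unadjusted p-value under 0.05, with 4 higher and 2 lower in cKO, against 4.43% of all genes. The 12 genes of SREBP processing had 4 positive and 8 negative log2 fold changes, led by Mbtps2, the site-2 protease, at -0.50 (SE 0.22). Of the 15 genes of the isoprenoid branch, which uses farnesyl pyrophosphate for other products, 7 were positive, and Icmt, a methyltransferase of prenylated proteins, had the largest value at -0.55 (SE 0.20). Among the 14 genes of sterol export and oxysterols tested, 10 were positive (median 0.15). In that list the largest value was -1.24 (SE 0.69) for Ch25h, the cholesterol 25-hydroxylase, at 9 to 199 counts. Dgat2, an enzyme of triglyceride synthesis, led the 20 other fatty acid genes with 1.09 (SE 0.46). It was at 7.25, 2.21, 8.51 and 10.4 CPM in CTR and 23.3, 10.4, 17.9 and 8.84 in cKO. The genotypes lay apart for 2 of the 61 genes (3.28%, against 2.62% of all genes), Abcg1, a sterol exporter, and Paqr3, an anchor of SCAP in the Golgi, which were named after their values were seen. Abcg1 was at 3.33, 3.68, 1.55 and 2.46 CPM in CTR and 8.24, 6.79, 4.09 and 4.76 in cKO (log2 fold change 1.11, SE 0.37, unadjusted p = 0.0126 and adjusted p = 0.999 in edgeR).

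Between the ranges of title numbers, with genotype in the model, 0 of the 34 genes passed the adjusted threshold in edgeR, where 2 of all genes (0.0137%) did. At an unadjusted p-value under 0.05 there were 5 of the 34, against 11.6% of all genes, with 2 higher (5.10% of all genes) and 3 lower (6.50%) in 67 to 86. Scd1 was lower in 67 to 86, at 63.9 ± 19.4 CPM against 117 ± 36.9 in 26 to 32 (SD, n = 4 each), with a log2 fold change of -0.86 (SE 0.25, unadjusted p = 0.00773 and adjusted p = 0.266 in edgeR). DESeq2's Wald test called Scd1 (adjusted p = 0.0254), and so did its likelihood ratio test (adjusted p = 0.0297), where these tests called 380 (2.76%) and 342 (2.44%) of all genes. Scd2 (-0.36) and Fads2, a desaturase of polyunsaturated fatty acids (-0.67), were also lower in value in 67 to 86, whereas Srebf2 (0.35) and Ebp (0.38) were higher. For Ebp the 4 libraries of 67 to 86 lay above the 4 of 26 to 32 (2-sided exact permutation test, p = 0.0286, the smallest possible), and it was the only 1 of the 34 genes whose ranges lay apart, against 6.87% of all genes. All 7 mevalonate genes had positive values (median 0.29, and 0.15 without cKO2), against 49.0% of all genes, and 7 of the 10 fatty acid genes had negative ones, against 51.0%. The summed adipocyte list moved with the same split, with 6869 to 9176 CPM in 26 to 32 and 10822 to 14032 in 67 to 86 (exact permutation test, p = 0.0286). Without Adipoq and Lpl the list overlapped between the ranges, at 22.4 to 57.0 CPM against 43.7 to 86.9 (exact permutation test, p = 0.0857). The part of adipocytes in these values was not tested.

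**Figure D4:**
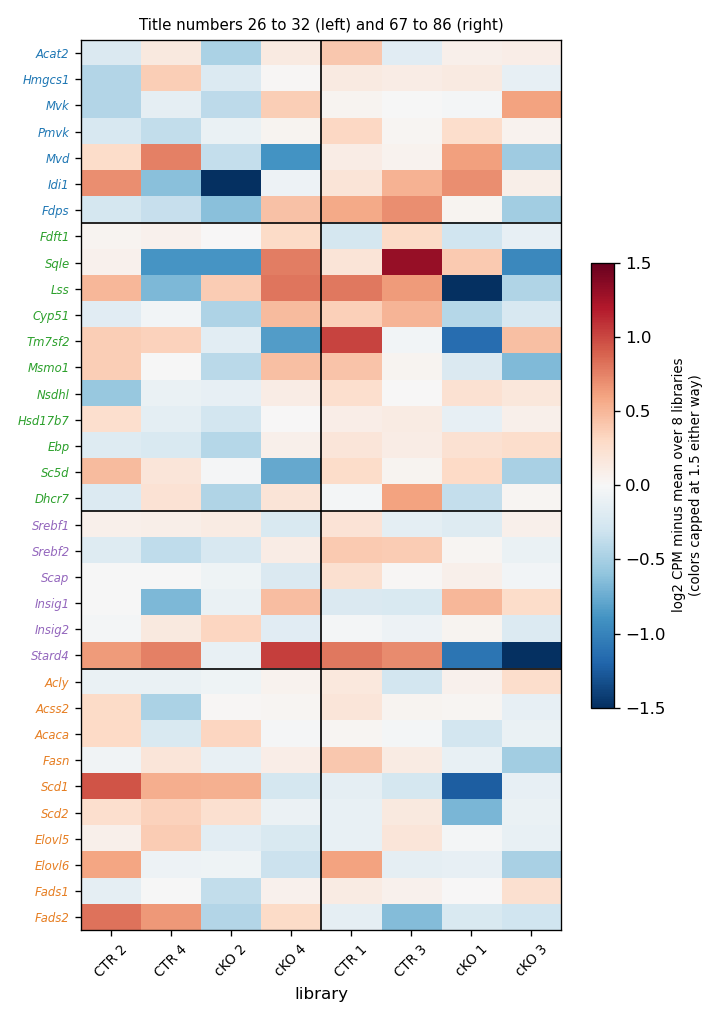
Log2 CPM of each of the 34 genes in each library minus the mean over the 8 libraries (red above, blue below, colors capped at 1.5 in either direction). Columns are the libraries, with title numbers 26 to 32 on the left and 67 to 86 on the right, and rows are grouped by role. The cKO2 column is mostly blue in the mevalonate and sterol rows, and Scd1 is red in 3 of the 4 columns on the left.

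The 8 libraries were ranked within each enzyme gene. The same ranking is not given for all genes, so these counts cannot be set against those of the libraries in general. For the 18 mevalonate and sterol genes, cKO2 was the lowest library for 7 and among the lowest 2 for 11, and in none among the highest 2. CTR1 was among the highest 2 for 8 of the 18, and CTR3, cKO1 and cKO4 for 6 each. CTR1 and CTR3 were the lowest for 0. The summed level of the 18 genes was 286 CPM in cKO2 and 409 CPM in CTR3, with cKO4 at 387 CPM. cKO2 belongs to title numbers 26 to 32 and CTR1 and CTR3 to 67 to 86. For the fatty acid genes cKO1 had the lowest sum, 553 CPM, and CTR2 the highest, 774 CPM. The median correlation between pairs of genes across the 8 libraries was 0.22 for the 18 mevalonate and sterol genes, 0.11 for the 34 genes and -0.002 for all genes tested, which describes these libraries and was not tested.

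Of 4 pairs of genes compared over the 8 libraries, none passed. Idi1 and Sqle had Pearson's r = 0.63 (exact permutation p = 0.0925, adjusted over the 4 pairs p = 0.370) and Spearman's rho = 0.40 (exact permutation p = 0.327), with r = 0.22 without CTR4 and cKO2, the libraries farthest from the median of Idi1, and r = 0.90 after the mean of each genotype in each title range was subtracted. Hmgcs1 and Insig1 had r = -0.36 (exact permutation p = 0.388, adjusted p = 0.776) and rho = -0.38 (exact permutation p = 0.360), with r = -0.01 without CTR2 and CTR4 and r = -0.46 after subtracting the means. For Fasn and Scd1 it was r = 0.06 (exact permutation p = 0.897) and rho = -0.05 (exact permutation p = 0.935), and for Srebf1 and Fasn r = 0.07 (exact permutation p = 0.885) and rho = 0.19 (exact permutation p = 0.665), both with an adjusted p = 0.897 for r. With more comparisons, chosen after the values were seen, Srebf2 was set against each of the 18 mevalonate and sterol enzymes. It had a positive r with 16 of them (median 0.41), and 0 passed after adjustment over the 18. The highest was Fdps, with r = 0.91 (exact permutation p = 0.00295, adjusted p = 0.0531) and rho = 0.86 (exact permutation p = 0.0107, adjusted p = 0.193), r = 0.76 (exact permutation p = 0.0806) without CTR1 and CTR3 and r = 0.91 after subtracting the means. Scd1 was set against the other 9 fatty acid enzymes in the same way. Scd1 and Scd2 had r = 0.91 (exact permutation p = 0.00449, adjusted p = 0.0404) and rho = 0.76 (exact permutation p = 0.0368, adjusted p = 0.331). Without CTR2 and cKO1 it was r = 0.81 (exact permutation p = 0.0597) over the remaining 6 libraries, and after subtracting the means r = 0.82. Each subtracted mean came from 2 libraries, which mirror each other afterwards, so the r values after subtraction rest on few independent values. The subtraction also raised the share of all gene pairs with r above 0.7 from 3.11% to 9.47%. Each title range holds 4 libraries, too few for a correlation within it.

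**Figure D5:**
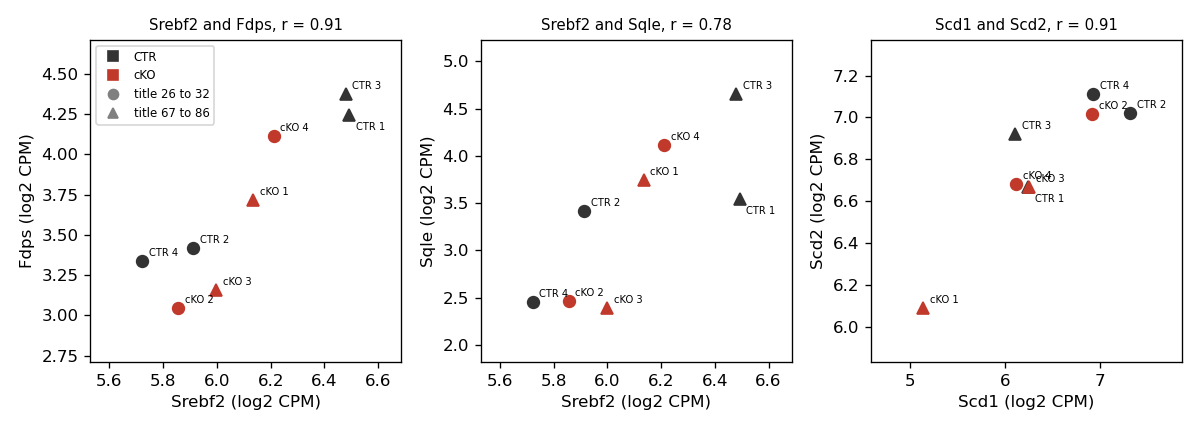
Log2 CPM of Srebf2 against Fdps and Sqle, and of Scd1 against Scd2, with 1 point for each library. Black is CTR and red cKO, circles are title numbers 26 to 32 and triangles 67 to 86. CTR1 and CTR3 are highest in Srebf2, and cKO1 lies apart at the low end of Scd1 and Scd2.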

How the data were processed

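RNA of double-sorted MSPCs was sequenced after poly(A) selection. Per the study's methods, reads were trimmed and mapped with HISAT2 to GRCm38 (mm10), and HTSeq assigned them to genes. The authors deposited these raw counts without normalization. All 8 columns of the table were matched to a sample by the number in its title. Genes were kept when no library had a count of 0, which left 14598, and edgeR 4.0.16 was applied with TMM scaling in R 4.3.3 (its quasi-likelihood test, Benjamini-Hochberg adjustment over all genes, threshold 0.05). Log2 CPM used a prior count of 2. Exon lengths and gene coordinates are those of GENCODE M21, which differs from the release the methods name. The study's likelihood ratio test corrected for a batch that is not described. DESeq2 1.42.0 and limma-voom (limma 3.58.1) were alternatives, as were other scalings and filters, the title range or replicate number as a term, and each library left out. The fitting was tested on simulated data.

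The genes, roles and lists were chosen with earlier results of these data known. Values in every library are given for the 2 genes of each role with the largest absolute log2 fold change and the 2 with the highest level, for genes past a threshold, and for Srebf1, Srebf2, Insig1 and Insig2. Of the pathway lists, the gene with the largest absolute log2 fold change was named. Sqle, Fasn, Elovl5 and the promoters were added after their values were seen. Exact permutation tests enumerated the 70 assignments of 8 libraries to groups of 4.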

Additional observations from a re-analysis of the deposited data

Results flagged for a closer look

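In each genotype, a library was marked for a gene when its gap to the nearest library, as a share of the range over the 4 libraries in log2 CPM, exceeded Dixon's critical value. This occurred in 3 of 68 groups, where chance gives about 3.4. Acat2 in cKO was lowest in cKO2, with a share of 0.919. Scap in CTR was highest in CTR1, with a share of 0.903. Acss2 in cKO was lowest in cKO3, with a share of 0.884.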

How the results depend on the processing

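None of the 34 genes was called between genotypes under any of the 18 alternatives, and 25 to 28 of them had negative log2 fold changes. The number of all genes called moved from 0 to 22 (DESeq2 likelihood ratio test), 47 (the same with the title range as a term), 23 (DESeq2 Wald test), 1 (filterByExpr) and 1 (no filter). Within title numbers 26 to 32, the median difference was -0.073 for the 34 genes, 0.037 for the sterol genes and -0.15 for the fatty acid genes, and within 67 to 86 it was -0.17 for the fatty acid genes. Insig2 turned negative with limma-voom (-0.0043), with the replicate block (-0.0037) and within 67 to 86 (-0.029). Fads1 was 0.028 within 67 to 86, and Fdps and Srebf2 were 0.20 and 0.22 within 26 to 32. Leaving out 1 library gave -0.17 to 0.051 for Acat2, -0.25 to 0.00042 for Hmgcs1, -0.10 to 0.092 for Fads1 and -0.11 to 0.076 for Insig2. The cause was not tested.

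Between the title ranges, DESeq2 called 1 of the 34 genes with either test, and 342 (likelihood ratio) and 380 (Wald) of all genes. The number of all genes was 1 with RLE scaling, 0 without genotype as a covariate and 4 without a filter, and it ranged from 0 to 4 with 1 library left out. The same range was -0.045 to 0.28 for Hmgcs1, -0.23 to 0.078 for Elovl6, -0.10 to 0.048 for Srebf1, -0.25 to 0.37 for Mvd, -0.16 to 0.17 for Sc5d and -0.12 to 0.52 for Tm7sf2. After subtracting the group means, r was -0.81 for Fasn and Scd1 and -0.24 for Srebf1 and Fasn, which rest on few independent values. The labels do not say that a replicate number marks a shared origin, and the numbers were not taken as pairs, since the deviations of same-numbered libraries correlated at 0.131, 0.176, 0.084 and 0.057, not all above 0.1. As a hint from the data, 7 of 8 libraries correlated best with their own number, and same-numbered libraries have neighboring title numbers. The main genotype fit and the exact permutation tests therefore took the libraries as unpaired, and they do not account for pairs if the numbers mark them. With the replicate block, 0 genes were called. Unadjusted edgeR p-values were then under 0.05 for 5 of the 34 (2 without it) and for 812 of the 14598 genes tested (646 without it). With 4 mice per group and as few as 7 counts for the lowest genes, small differences cannot be detected.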
